A study of Mus musculus with 12 samples.

Results

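Cytochromes P450 of the Cyp4 family are membrane-bound monooxygenases that add a hydroxyl group to the end carbon (the omega carbon) of fatty acids and eicosanoids. Here 8 mouse members were taken by name: Cyp4a10, Cyp4a12a, Cyp4a12b, Cyp4a14, Cyp4f13, Cyp4f14, Cyp4f15 and Cyp4v3. A member was measured when a probe carried its symbol and was detected (detection p under 0.05) on at least 3 arrays. Of the 8 members, 7 had a named probe, 1 each, and all 7 probes were detected on all 12 arrays, so these 7 stand among 9747 genes tested. The annotation used here names no probe for Cyp4a10, which is not analysed here.

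The data came from a study of how the nuclear receptor ESRRA (estrogen-related receptor alpha) and thyroid hormone act on the liver, in 8-week-old male C57BL/6 mice, with 3 Illumina bead arrays in each of 4 groups. T3 livers came from mice given L-T3 (liothyronine, the active thyroid hormone) once a day for 3 days. XCT790 livers came from mice given XCT790, an inverse agonist of ESRRA, once a day for 4 days. Combined livers came from mice given XCT790 for 4 days and L-T3 on the last 3 of them. Control livers came from mice for which no injection was recorded, and whether they received vehicle is not stated, so every comparison with control also holds the injections themselves. All compounds went into the peritoneal cavity and all mice fed freely. No genetic change is recorded for any group, and RNA came from pieces of unsorted liver. The arrays of a group are numbered from 1 to 3 without a statement that each was a separate mouse, so p-values measure the spread between arrays, which may be technical.

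Omega-hydroxylation is a side route of fatty acid breakdown: a Cyp4 enzyme hydroxylates the end carbon, alcohol and aldehyde dehydrogenases turn the product into a dicarboxylic acid, and peroxisomes shorten that acid. In the mouse liver the Cyp4a genes are known as targets of PPARA, the receptor that fatty acids and fibrates activate, while the Cyp4a12 genes are also known for higher expression in males than in females under the control of growth hormone pulses. Cyp4f enzymes are known for inactivating leukotriene B4 and related lipid mediators. Cyp4v3 is the mouse counterpart of human CYP4V2, a hydroxylase of medium-chain fatty acids.

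Promoter sequences are shown for the Cyp4f genes, whose 3 members each differed by less than 1 log2 unit in every comparison, and for Cyp4v3, which is set beside them. Each run is the 250 bases before the annotated start in RefSeq on GRCm38.p6, written 5′ to 3′ on the strand of the gene, and capitals mark the letters CCAAT read on either strand. Of the 8 members, 4 have an entry in the table used, and for Cyp4f14, which has 4 listed starts, the most upstream is shown.
Cyp4f13, chr17:32947362-32947611, minus strand: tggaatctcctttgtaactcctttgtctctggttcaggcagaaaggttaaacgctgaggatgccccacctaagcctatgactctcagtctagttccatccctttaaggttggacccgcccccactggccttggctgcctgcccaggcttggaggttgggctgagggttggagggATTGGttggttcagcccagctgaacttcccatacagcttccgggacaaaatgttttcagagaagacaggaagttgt
Cyp4f14, chr17:32917357-32917606, minus strand: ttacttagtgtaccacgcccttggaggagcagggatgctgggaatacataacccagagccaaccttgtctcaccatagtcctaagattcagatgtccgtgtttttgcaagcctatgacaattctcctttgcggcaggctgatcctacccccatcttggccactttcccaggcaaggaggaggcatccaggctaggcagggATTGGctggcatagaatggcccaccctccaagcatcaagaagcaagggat
Cyp4f15, chr17:32685409-32685658, plus strand: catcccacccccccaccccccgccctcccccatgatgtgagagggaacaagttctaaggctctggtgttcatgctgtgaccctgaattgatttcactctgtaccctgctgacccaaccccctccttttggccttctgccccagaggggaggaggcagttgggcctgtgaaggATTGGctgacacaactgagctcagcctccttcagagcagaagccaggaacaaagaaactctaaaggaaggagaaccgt
Cyp4v3, chr8:45333164-45333413, minus strand: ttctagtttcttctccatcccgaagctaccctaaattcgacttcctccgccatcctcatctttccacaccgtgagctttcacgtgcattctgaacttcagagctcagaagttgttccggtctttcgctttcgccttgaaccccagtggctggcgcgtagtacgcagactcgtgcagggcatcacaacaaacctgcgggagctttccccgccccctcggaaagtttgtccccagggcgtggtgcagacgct
The Cyp4f13, Cyp4f14 and Cyp4f15 windows each hold 1 CCAAT match, in all 3 cases on the opposite strand and so written ATTGG. The match begins 76 bases before the start in Cyp4f13 and 78 in Cyp4f15. For Cyp4f14 the distance depends on the start, at 50, 64 and 77 bases for 3 of the listed starts, and the window of the last one holds another match 24 bases before it, on the gene's own strand. Cyp4v3 has no match. CCAAT is common, with a match in 33.8% of the 32851 windows of the same length in the table. None of the 7 windows of these 4 genes holds AGGTCA, the half-site that nuclear receptors such as the thyroid hormone receptor, PPARA and ESRRA recognise, on either strand, and 14% of all windows do. It follows that 3 longer forms built on AGGTCA are also missing. TCAAGGTCA, the extended form that ESRRA prefers, is found in 0.387% of windows, direct repeats of AGGTCA with 1 base between them in 0.0335%, and those with 4 bases between them in 0.0152%. TTCNNNGAA, the form bound by STAT factors, has 1 match, 22 bases before the start of Cyp4f13, and is found in 7.02% of windows. TATAAA, found in 12.4%, has no match. A match describes letters only, and a window without one says nothing on binding by the factor elsewhere.

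Arrays of a group resembled each other closely, with correlations over the 9747 genes tested from 0.989 to 0.992 within groups and from 0.969 to 0.990 between groups. Summed non-normalized intensity lay between 14568457 and 22343383 per array, and 31.9% to 35.6% of probes were detected. The labelled tissue was checked on 13 hepatocyte markers, of which 9 were tested and 8 were detected on all 12 arrays, among them Apoa1, Ttr, Cps1 and Cyp2e1. Tat and Fgb did not pass the filter, and the probe of Alb, which encodes serum albumin, was dim and detected on 7 arrays. Levels below are log2 of background-corrected, quantile-normalized intensity. They compare 1 probe between groups and not 1 gene with another, since probes differ in brightness at the same amount of RNA. In whole liver, fewer cells of a type and less RNA per cell cannot be told apart.

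For T3 against control livers, 5 of the 7 members were called (adjusted p under 0.05, limma over all 9747 genes), 1 higher and 4 lower, where 16.1% of all genes were called, 7.22% higher and 8.85% lower. Cyp4a12a, Cyp4a12b, Cyp4f15 and Cyp4v3 fell and Cyp4a14 rose. The median log2 fold change of the 7 was -0.59, against -0.007 for all genes. For XCT790 against control, 1 member, Cyp4a14, was called higher and 0 lower, where 4.41% of all genes were called, 2.26% higher and 2.15% lower. With T3 in mice already given XCT790, which compares combined with XCT790 livers and shares no array with the comparison of T3 and control, 5 members were called, all lower, where 15.2% of all genes were called, 7.62% higher and 7.55% lower. Of these 5, 4 were also called for T3 against control. For combined against control livers 1 member was higher and 4 were lower, where 18.6% of all genes were called, 8.93% higher and 9.7% lower. Scaling each array to its median in place of quantile normalization left 5 members called for combined against XCT790 and called all 7 for combined against control, 1 higher and 6 lower, with Cyp4f13 and Cyp4f14 added. It shifted the median of all genes by -0.17 in combined against XCT790 and by -0.259 in combined against control. The share of all calls that were higher became 21.2% and 12.1% under it, where quantile normalization gave 50.2% and 47.9%. For combined against T3 livers limma called 0 of 7 members, where 0.0923% of all genes were called. An unadjusted p under 0.05 was found for 1 member and for 1238 of all 9747 genes. For the interaction, the difference between the T3 response with XCT790 and without it, limma called 0 of 7, where 0.462% of all genes were called. An unadjusted p under 0.05 was found for 3 members (Cyp4a12b, Cyp4a14 and Cyp4v3) and for 1178 of all 9747 genes. With the array number as a block Cyp4a12b passed (adjusted p = 0.0282). The log2 values of the 3 arrays did not overlap between groups for 6 members in T3 against control, where that held for 34.8% of all genes, and for 6 members in XCT790 against control, where it held for 21.9%. The same was true of 5 members in combined against XCT790 (32.8% of all genes), of 0 in combined against T3 (19.3%) and of 7 in combined against control (35.5%).

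**Figure D1:**
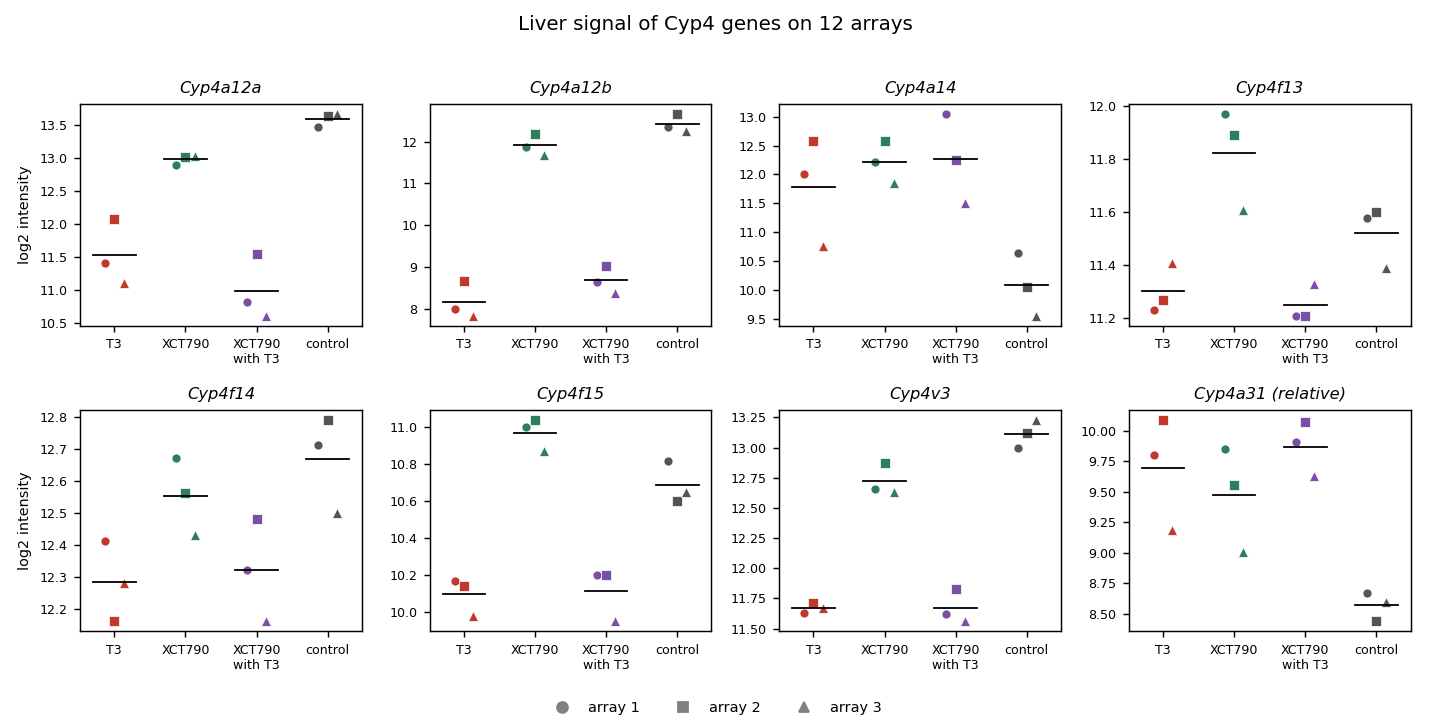
Log2 normalized intensity (vertical axes, each panel with its own range) of the 7 measured members and the related Cyp4a31 on 12 arrays, by group; marker shapes give the array number and black lines the mean of 3 arrays. Cyp4a12a, Cyp4a12b, Cyp4f15 and Cyp4v3 lie lower in T3 and combined livers than in XCT790 and control livers without overlap, while Cyp4a14 lies lowest in control livers.

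Cyp4a12a, known in mice as the main hydroxylase that turns arachidonic acid into 20-HETE, fell with T3. Its log2 levels were 11.41, 12.07 and 11.11 in T3 livers, 12.89, 13.02 and 13.03 in XCT790 livers, 10.81, 11.55 and 10.61 in combined livers, and 13.47, 13.64 and 13.66 in control livers. Both groups given T3 lay below both groups without it, with no overlap. T3 against control gave a log2 fold change of -2.06 ± 0.25 (SE, n = 3 each, adjusted p = 0.000186, limma), a 4.16-fold lower level. In mice given XCT790 the T3 response was -1.99 ± 0.25 (adjusted p = 0.000264, limma), and the interaction of 0.07, with a 95% interval from -0.71 to 0.84, had an adjusted p of 0.964. XCT790 livers averaged 12.98 ± 0.07 and control livers 13.59 ± 0.11 (SD, n = 3), and the log2 difference of -0.61 did not pass (adjusted p = 0.217, limma), though the 3 arrays of each did not overlap. Combined livers stood 6.06-fold below control (adjusted p = 2.55e-05, limma). From lowest to highest mean the order was combined, T3, XCT790 and control, and the arrays of combined and T3 livers overlapped (log2 difference -0.54, 95% interval -1.09 to 0.00).

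Cyp4a12b, its close relative on chromosome 4, showed the lowest T3 fold change of all 9747 genes. T3 livers had log2 levels of 8.02, 8.67 and 7.85, XCT790 livers 11.87, 12.17 and 11.68, combined livers 8.66, 9.04 and 8.40, and control livers 12.35, 12.65 and 12.24. The T3 and control arrays were separated by more than 3 log2 units. The log2 fold change was -4.24 ± 0.22 (SE, adjusted p = 3.24e-07, limma), 18.8-fold lower in T3 livers. In mice given XCT790 it was -3.20 ± 0.22 (adjusted p = 2.49e-06, limma), 9.22-fold lower in combined than in XCT790 livers. The response to T3 was thus smaller by 1.03 with XCT790, with a 95% interval from 0.34 to 1.72, which did not pass over all genes (adjusted p = 0.201) and passed with the array number as a block (adjusted p = 0.0282, 0.0282 to 0.433 over 22 alternatives). XCT790 against control gave -0.51 (adjusted p = 0.26, and 0.0311 with that block). Combined and T3 livers overlapped, at means of 8.70 ± 0.32 and 8.18 ± 0.43 (SD, n = 3), and the difference of 0.52 had an adjusted p of 0.361. From lowest to highest mean the order was T3, combined, XCT790 and control. In every group array 3 was the lowest for Cyp4a12b. Cyp4a12a and Cyp4a12b are nearly identical genes, so a probe of one may also bind RNA of the other. The probe sequences were not used here, and how far this joins both readings was not tested.

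Cyp4a14, a hydroxylase of lauric acid and a marker of PPARA activity in mouse liver, went the other way. Its log2 levels were 12.01, 12.58 and 10.77 in T3 livers, 12.22, 12.57 and 11.86 in XCT790 livers, 13.04, 12.25 and 11.50 in combined livers, and 10.64, 10.06 and 9.56 in control livers. All 9 arrays of the groups given a compound lay above all 3 control arrays, though the gap between T3 array 3 and control array 1 was small. The log2 fold change against control was 1.70 ± 0.46 with T3 (SE, adjusted p = 0.0266, limma), 2.13 ± 0.46 with XCT790 (adjusted p = 0.0248) and 2.17 ± 0.46 with both (adjusted p = 0.00706). These equal 3.25-fold, 4.38-fold and 4.51-fold higher levels. Adding T3 to XCT790 gave 0.04, with a 95% interval from -0.97 to 1.06, and combined against T3 livers gave 0.47, from -0.54 to 1.49. From highest to lowest mean the order was combined, XCT790, T3 and control, and the first 3 overlapped. The interaction of -1.66 had a 95% interval from -3.09 to -0.22 and did not pass (adjusted p = 0.338, limma). The spread was the widest of the 7 members, with an SD of 0.93 in T3 livers, and array 3 was the lowest in all 4 groups. Leaving out array 2 or 3 of control, or 1 or 2 of T3, ended the call for T3 (adjusted p 0.0714 to 0.108). Leaving out array 2 or 3 of control, or 1 or 2 of XCT790, ended that for XCT790 (adjusted p 0.0762 to 0.0926). Both were also lost with a robust, intensity-dependent prior variance (0.0685 and 0.0626), while the call for combined livers held in all 23 alternatives.

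The RefSeq gene order on chromosome 4 places Cyp4a14 and Cyp4a10 next to each other, near Cyp4a31, and Cyp4a12a and Cyp4a12b in the same cluster with pseudogenes between them. Cyp4a31 had a pattern like that of Cyp4a14. Its log2 levels were 9.80, 10.09 and 9.19 in T3 livers, 9.85, 9.56 and 9.01 in XCT790 livers, 9.91, 10.07 and 9.63 in combined livers, and 8.67, 8.44 and 8.60 in control livers. Each group given a compound lay above control without overlap. T3 livers were 2.17-fold above control (adjusted p = 0.00703, limma) and combined livers 2.46-fold (adjusted p = 0.00281). XCT790 livers were 1.87-fold above control, just short of the threshold (adjusted p = 0.0542, and 0.0223 to 0.202 over 23 alternatives, with 0.0249 without XCT790 array 3). Within the cluster the Cyp4a12 pair was lower and Cyp4a14 and Cyp4a31 were higher in T3 livers, and other genes lie between these pairs in the RefSeq order. The same limit on shared probe binding holds for Cyp4a31 and Cyp4a14.

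**Figure D2:**
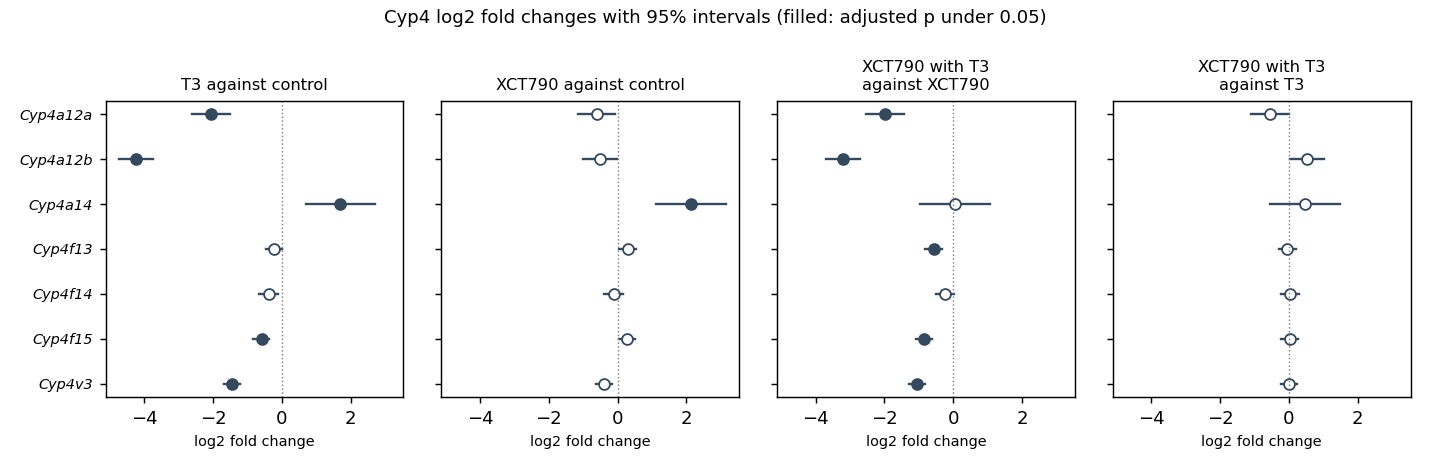
Log2 fold changes of the 7 measured members (horizontal axes, points) with 95% intervals (lines) in 4 comparisons; filled points have an adjusted p under 0.05. The Cyp4a12 pair and Cyp4v3 fell in both comparisons of T3 with its own baseline, Cyp4a14 is the member called for XCT790, and no point is filled for combined against T3 livers.

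The Cyp4f genes lie on chromosome 17, and each differed by less than 1 log2 unit in every comparison. Cyp4f15, assigned to the leukotriene hydroxylases, had log2 levels of 10.17, 10.14 and 9.98 in T3 livers, 11.00, 11.04 and 10.87 in XCT790 livers, 10.20, 10.20 and 9.95 in combined livers, and 10.82, 10.60 and 10.65 in control livers. XCT790 arrays were the highest and the groups given T3 the lowest, with no overlap between these 3 levels. T3 livers were 1.51-fold below control (log2 fold change -0.59 ± 0.11, SE, adjusted p = 0.00291, limma). Combined livers were 1.81-fold below XCT790 livers (-0.86 ± 0.11, adjusted p = 0.000259). XCT790 against control gave 0.28, with a 95% interval from 0.05 to 0.52 (adjusted p = 0.186). Combined and T3 livers averaged 10.11 ± 0.15 and 10.09 ± 0.10 (SD, n = 3), a difference of 0.02 with a 95% interval from -0.22 to 0.25.

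Cyp4f13, of the same subfamily, had log2 levels of 11.23, 11.27 and 11.41 in T3 livers, 11.97, 11.89 and 11.61 in XCT790 livers, 11.21, 11.21 and 11.33 in combined livers, and 11.58, 11.60 and 11.39 in control livers. T3 and control arrays overlapped. XCT790 arrays again stood highest. Combined livers were 1.49-fold below XCT790 livers (log2 fold change -0.57 ± 0.11, SE, adjusted p = 0.00561, limma), which passed, while T3 against control gave -0.22 (95% interval -0.47 to 0.02, adjusted p = 0.213). These 2 responses were not shown to differ (interaction -0.35, adjusted p = 0.414). XCT790 against control gave 0.30 (adjusted p = 0.186).

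Cyp4f14, known for the omega-hydroxylation of leukotriene B4 and of vitamin E in mice, had log2 levels of 12.41, 12.16 and 12.28 in T3 livers, 12.67, 12.56 and 12.43 in XCT790 livers, 12.32, 12.48 and 12.16 in combined livers, and 12.71, 12.79 and 12.50 in control livers. It was called in none of the comparisons. T3 and control arrays did not overlap, yet the log2 difference of -0.38 narrowly missed the threshold (adjusted p = 0.0536, limma) and passed it in 8 of 23 alternatives, among them the values without background correction (adjusted p = 0.0221) and the fit without control array 3 (0.0386). Combined against control livers gave -0.34 (adjusted p = 0.07), which passed in 6 of 23. In both counts the deposited matrix stands beside the values without background correction, which it repeats. XCT790 against control gave -0.11, with a 95% interval from -0.38 to 0.16. Among pairs of members, the 3 Cyp4f genes lay closest over the 12 arrays. The root mean square difference of their centred log2 levels was 0.19 between Cyp4f13 and Cyp4f14, 0.22 between Cyp4f13 and Cyp4f15 and 0.27 between Cyp4f14 and Cyp4f15, while the Cyp4a12 pair differed by 0.94 and Cyp4a12b and Cyp4a14 by 2.52. Members that move little are close by this measure, so it does not show a shared pattern. XCT790 against control gave -0.11 for Cyp4f14, 0.30 for Cyp4f13 and 0.28 for Cyp4f15, none of them called.

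Cyp4v3 on chromosome 8 fell with T3, with arrays close together. T3 livers had log2 levels of 11.63, 11.71 and 11.67, XCT790 livers 12.66, 12.87 and 12.63, combined livers 11.62, 11.83 and 11.56, and control livers 13, 13.12 and 13.23. The groups fell into 3 separate levels, with T3 and combined livers together at the bottom and control livers on top. T3 livers were 2.73-fold below control (log2 fold change -1.45 ± 0.11, SE, adjusted p = 3.44e-06, limma), and combined livers 2.07-fold below XCT790 livers (-1.05 ± 0.11, adjusted p = 5.2e-05). XCT790 against control gave -0.40, with a 95% interval from -0.63 to -0.16. It missed the threshold (adjusted p = 0.0628, limma) and passed it in 5 of 23 alternatives (0.00991 to 0.218 over all of them). T3 and combined livers had the same mean of 11.67, with SDs of 0.04 and 0.14, and a 95% interval of the difference from -0.23 to 0.24. The interaction of 0.40 had an adjusted p of 0.318.

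**Figure D3:**
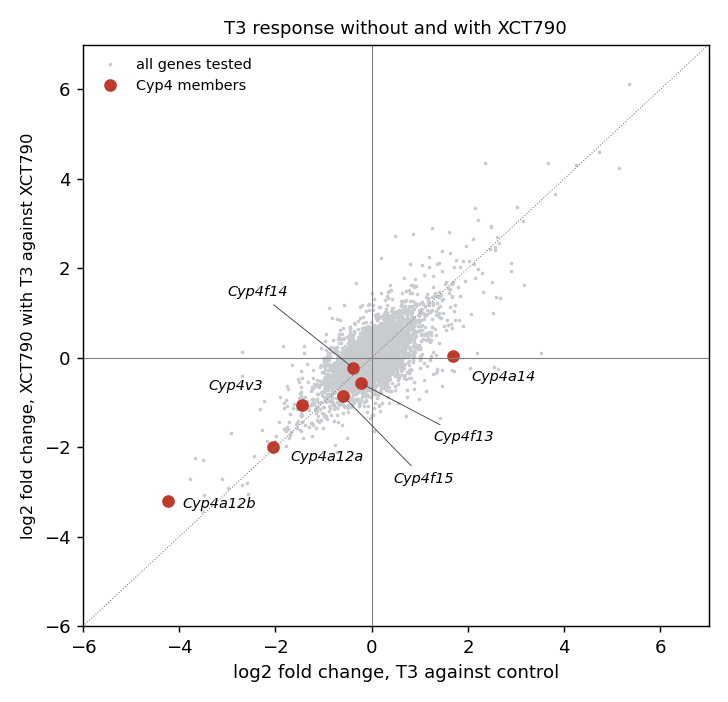
Log2 fold change of combined against XCT790 livers (vertical axis) and of T3 against control livers (horizontal axis), which share no array, for all 9747 genes (grey) and the 7 measured members (red); the dotted line marks equal responses. Cyp4a12a lies near the line at -2.06 and -1.99, Cyp4a12b at -4.24 and -3.20, and Cyp4a14 has 1.70 on the horizontal axis and 0.04 on the vertical.

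Further Cyp4 genes were read from probes of their own. Of 10 further Cyp4 symbols with a probe, 7 were tested: Cyp4a31, Cyp4b1, Cyp4b1-ps2, Cyp4f16, Cyp4f17, Cyp4f39 and Cyp4f40. Cyp4b1, Cyp4b1-ps2, Cyp4f16 and Cyp4f17 were called in no comparison. Cyp4f39 was detected on the 3 combined arrays and on none of the other 9, at 5.28, 5.42 and 5.37 in combined livers. It was at least 1.08-fold higher in combined than in XCT790 livers and at least 1.13-fold higher than in control livers. Its probe passed the filter only through those 3 combined arrays, so these bounds are a description with no test. Cyp4f40 was detected on the 3 T3 and the 3 control arrays, on 1 XCT790 array and on no combined array. It was at least 1.21-fold lower in combined than in control livers. Its probe passed the filter without any combined array, so this bound is also a description with no test. In such bounds, here and below, the dim group stands on each array at the lowest signal among detected probes, or at its own where that is higher.

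Genes that complete the pathway were read from lists chosen with earlier results of these data known, and are described by counts, to be read against the shares of all genes given above: 7.22% higher and 8.85% lower for T3 against control, 2.26% and 2.15% for XCT790 against control, and 7.62% and 7.55% for combined against XCT790. The counts with T3 hold Abcd2, Cyp2u1, Hsd17b6 and Cux2, whose probes passed the filter only through the groups with or without T3. The filter set the direction of these genes in part, so they add nothing to a reading against these shares. In the list of later omega-oxidation steps and electron supply, 0 of 9 tested genes were higher and 5 lower in T3 livers (median log2 fold change -0.47). Adh4, an alcohol dehydrogenase that takes omega-hydroxy fatty acids, fell by 1.15 on the log2 scale with T3 (adjusted p = 3.05e-05, limma) and by 0.69 with XCT790 (adjusted p = 0.00483). Cyb5b and Cyb5a, cytochromes b5 that pass electrons to P450 enzymes, fell by 0.79 and 0.59 with T3 (adjusted p 0.0014 and 0.00228). XCT790 changed 1 gene of this list, Adh4. In the peroxisomal list, T3 called 3 of 20 genes higher and 2 lower, with a median of -0.05. Acot12, an acyl-CoA thioesterase, rose by 0.58 (adjusted p = 0.00455, limma) and Acox2, an oxidase of branched-chain and bile acid intermediates, fell by 0.52 (adjusted p = 0.00644). Abcd2, a peroxisomal fatty acid transporter not detected in control livers, was at least 1.74-fold higher in T3 livers. Its probe passed the filter only through the groups given T3, so this bound is a description with no test. XCT790 called 2 of the 20 higher and 1 lower. Acot3 and Acot4, peroxisomal thioesterases of long-chain and dicarboxylic acyl-CoA, were 7.14-fold and 2.23-fold above control in XCT790 livers (adjusted p 0.00497 and 0.0113, and 0.0514 for Acot4 without XCT790 array 1), and Nudt7, a peroxisomal CoA hydrolase, fell by 0.64 (adjusted p = 0.01, and 0.0629 when only XCT790 and control arrays were fitted).

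Among PPARA targets outside the family, T3 called 7 of 13 higher and 0 lower (median 0.38), and XCT790 called 4 higher and 1 lower (median 0.20). Mgll, monoacylglycerol lipase, was 2.30-fold higher in T3 than in control livers (adjusted p = 2.01e-05, limma) and 1.40-fold higher in XCT790 livers (adjusted p = 0.0297, lost in 7 of 23 alternatives, among them each one that left out an XCT790 array). Plin5, a lipid droplet protein, was 2.44-fold higher with T3 (adjusted p = 0.000348) and 2.80-fold higher with XCT790 (adjusted p = 0.000891). Fgf21, a fasting hormone of the liver, was 4.42-fold higher with T3 (adjusted p = 0.00196). Plin2, another lipid droplet protein, was lower with XCT790 (log2 fold change -0.81, adjusted p = 0.0431), a call lost in 14 of 23 alternatives, among them each one that left out a control or XCT790 array.

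In the list headed arachidonic acid and leukotriene enzymes, 3 of 16 tested genes were higher and 9 lower in T3 livers (median -0.49). In combined against XCT790 livers 2 were higher and 11 lower. A place on this list, as for Cyp2c70, does not show that the enzyme acts on these lipids. Cyp2c23, an arachidonic acid epoxygenase, was 8.71-fold lower in T3 livers (adjusted p = 1.12e-07, limma). Cyp2c29, of the same subfamily, was 2.93-fold lower (adjusted p = 0.000241), and Cyp2u1, not detected in T3 livers, was at least 3.15-fold lower. The Cyp2u1 probe passed the filter only through the groups without T3, so this bound is a description with no test. With XCT790 the list had 1 gene higher and 2 lower. Cyp2c54 was 1.70-fold higher (adjusted p = 0.0052), Cyp2c70 1.53-fold lower (adjusted p = 0.00301, and 0.0648 under median scaling) and Cyp2u1 1.98-fold lower (adjusted p = 0.0138, and 0.0549 and 0.0563 without control array 2 or 3).

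**Figure D4:**
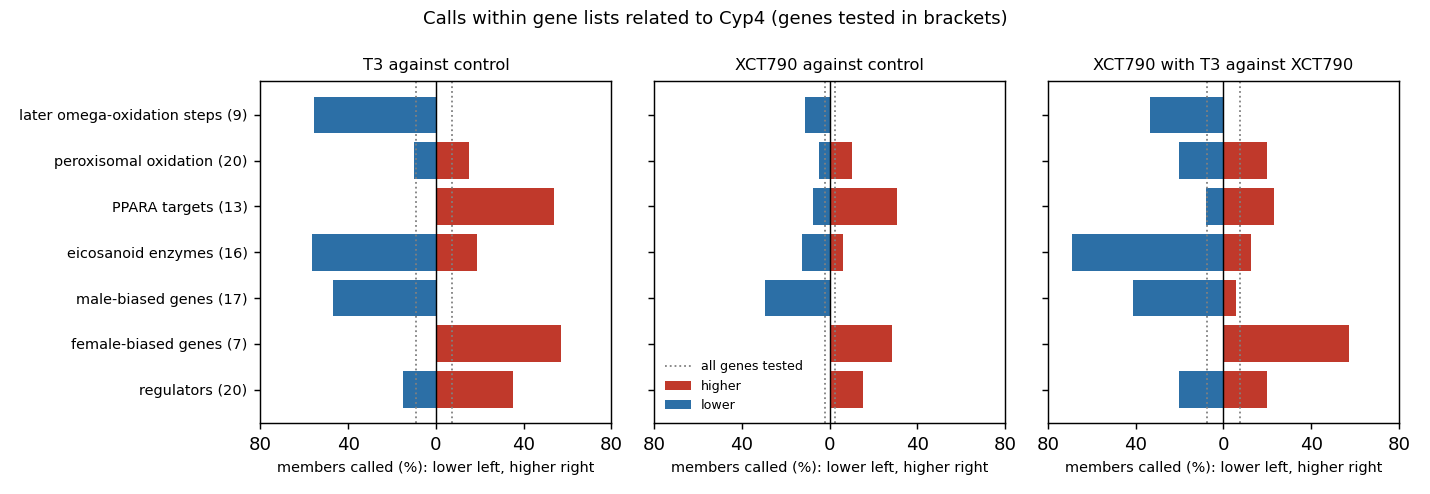
Percent of the tested genes of each list (rows, number tested in brackets) called lower (blue, to the left) or higher (red, to the right) in 3 comparisons; dotted lines give the same shares over all 9747 genes. In T3 against control livers 9 of 16 eicosanoid enzymes and 8 of 17 male-biased genes were lower, and 7 of 13 PPARA targets were higher. The female-biased row is not to be read against the dotted lines, since the filter set the direction of Cux2 and Cyp2a4 in part. In the other rows Abcd2, Cyp2u1, Hsd17b6 and Cux2 carry the same limit for comparisons with T3.

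The Cyp4a12 genes are known as male-biased in the mouse, and other genes with a known sex bias were read beside them. Of 17 tested male-biased liver genes, 0 were higher and 8 lower in T3 livers (median -0.57), and 0 were higher and 5 lower in XCT790 livers (median -0.43). Hsd17b6, a steroid dehydrogenase not detected in T3 livers, was at least 11.5-fold lower there than in control livers. Its probe passed the filter only through the groups without T3, so this bound is a description with no test. Nox4, an oxidase that makes hydrogen peroxide, and C6, a complement component, fell by 1.52 and 1.14 on the log2 scale with T3 (adjusted p 0.000233 and 8.86e-05, limma). Hsd3b5, a male-specific steroid dehydrogenase, was 2.78-fold lower with T3 and 2.49-fold lower with XCT790 (adjusted p 0.000743 and 0.00522). Elovl3, a fatty acid elongase, fell by 1.18 with XCT790 (adjusted p = 0.0283), and Selenbp2, a selenium-binding protein, fell by 0.89 (adjusted p = 0.0283). Without array 2 or 3 of the control or of the XCT790 group both calls were lost (adjusted p 0.0634 to 0.0952 for Elovl3 and 0.0549 to 0.108 for Selenbp2). The array number as a block also ended the call for Elovl3 (adjusted p = 0.0508), and fitting only XCT790 and control arrays that for Selenbp2 (0.0763). Of 22 listed female-biased genes, 18 had a probe and 7 were tested. Of these 7, 4 were higher with T3 and 2 with XCT790, with 0 lower in either. The Cux2 and Cyp2a4 probes passed the filter only through the groups given T3, which set their direction in part. These counts are therefore a description and are not to be read against the shares of all genes. Cyp17a1, a steroid hydroxylase, was 35.6-fold higher in T3 livers and 2.75-fold higher in XCT790 livers than in control livers (adjusted p 6.64e-08 and 0.00344). Cyp2a4, a steroid hydroxylase not detected in control livers, was at least 1.48-fold higher in T3 livers. Because of how its probe passed the filter, this bound is a description with no test. Acot3, also on this list, is given above, and Cyp2b9, a P450 of female liver, had a log2 difference of 1.18 with XCT790 that did not pass (adjusted p = 0.198, and 0.0132 without XCT790 array 1). Cux2, a repressor of male-biased genes known for its high level in female liver, was not detected in control livers. It was at least 3.61-fold higher in T3 livers, also a description with no test.

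Of 20 tested regulators of Cyp4 genes, T3 called 7 higher and 3 lower, and XCT790 called 3 higher and 0 lower. Cux2 is among the 7, and the filter set its direction in part. Ppara itself was not called: its log2 fold change was 0.08 with T3 (95% interval -0.18 to 0.34) and 0.40 with XCT790 (0.14 to 0.66, adjusted p = 0.0877, limma). Rxra, its dimer partner, gave 0.05 with T3 and 0.16 with XCT790, neither called, and the first turned to -0.02 without control array 1 and to -0.05 without T3 array 2. Ppard, the related receptor PPAR delta, was 2.65-fold higher in T3 livers (adjusted p = 2.64e-05), and Pparg, PPAR gamma, was 2.75-fold lower (adjusted p = 3.05e-05). Nr1i3, the xenobiotic receptor CAR, was 1.80-fold lower with T3 (adjusted p = 0.00299) and 1.93-fold higher with XCT790 (adjusted p = 0.00484). Nr1i2, the xenobiotic receptor PXR, was 1.61-fold higher with XCT790 (adjusted p = 0.0036, and 0.0993 under median scaling). Esrra, which encodes the receptor that XCT790 binds, was 1.49-fold higher with T3 (adjusted p = 0.00444, and 0.0501 under median scaling) and 1.49-fold higher with XCT790 (adjusted p = 0.0148). The call for XCT790 was lost without array 2 or 3 of control or 1 or 2 of XCT790 (0.0549 to 0.0619), when only XCT790 and control arrays were fitted (0.0665) and under median scaling (0.115). Hnf4a, a master factor of hepatocytes, rose by 0.46 with T3 (adjusted p = 0.0236) and was not called with XCT790 (0.20). The T3 call was lost under median scaling, which gave 0.36 (adjusted p = 0.285), and without array 1 or 3 of control or 2 or 3 of T3 (0.0514 to 0.0869). Bcl6, a repressor in the growth hormone pathway, gave -0.86 and -0.95, with 95% intervals from -2.24 to 0.52 and from -2.33 to 0.43, and was called for neither. Stat5b was not tested.

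Genes with the profile most like a member's were found over the 12 arrays by the root mean square difference of centred log2 levels, which is a description. Closest to Cyp4a12a were Mup21, a major urinary protein, at 0.31, Keg1 at 0.34 and Ces1e, a carboxylesterase, at 0.37, against an SD of Cyp4a12a over the arrays of 1.09. Mup21 averaged 12.80 in T3 livers, 14.48 in XCT790 livers, 12.62 in combined livers and 14.80 in control livers. Closest to Cyp4a12b were Abcc3, an exporter of bile acid conjugates, at 0.43, Serpina7, which encodes thyroxine-binding globulin, at 0.44, and Hsd17b6 at 0.46, against an SD of 1.90. Serpina7 was detected on 0 of 3 T3 arrays, 3 of 3 XCT790 arrays, 1 of 3 combined arrays and 3 of 3 control arrays. Closest to Cyp4a14 were Fbxo31, a ubiquitin ligase subunit, at 0.61, Cyp4a31 at 0.61 and Slc22a5, a carnitine transporter, at 0.62, against an SD of 1.05. Closest to Cyp4v3 were Chdh, choline dehydrogenase, at 0.13, Alas2, a heme synthesis enzyme, at 0.14 and Maml1, a Notch coactivator, at 0.15, against an SD of 0.65. Chdh averaged 6.94 ± 0.09 in T3 livers, 8.11 ± 0.17 in XCT790 livers, 7.03 ± 0.24 in combined livers and 8.26 ± 0.10 in control livers (SD, n = 3), the same order of levels as Cyp4v3.

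Markers of Kupffer cells, the macrophages of the liver, also changed with T3. Of 12 tested, 9 were higher and 0 lower in T3 than in control livers, and 8 were higher and 0 lower in combined than in XCT790 livers. Their summed intensity lay between 5839 and 6986 in T3 livers, 2723 and 3335 in XCT790 livers, 4048 and 6934 in combined livers, and 2792 and 4833 in control livers. The marker Cd5l was not among the genes tested, while Clec4f and Vsig4 were tested and detected on all 12 arrays. Hepatocyte markers summed to 133300 to 141100 in T3 livers, 135200 to 140100 in XCT790 livers, 128700 to 129500 in combined livers and 138700 to 143200 in control livers. The combined arrays thus lay below all arrays of the other groups. For T3 against control 1 of 9 was called, Hnf4a, which was higher. In combined livers 1 of 9 was called lower against XCT790 livers and 1 lower against control livers, with 0 higher in either. Endothelial markers summed to 9710 to 10780 in T3 livers, 8355 to 9279 in XCT790 livers, 9429 to 10320 in combined livers and 7767 to 9489 in control livers. The groups given T3 lay above their own baselines without overlap, while 0 of 13 were called for T3 against control and 1 of 13, Kdr, was higher in combined than in XCT790 livers. Stellate cell markers summed to 8719 to 9942 in T3 livers, 8961 to 9249 in XCT790 livers, 8758 to 9605 in combined livers and 7671 to 8892 in control livers, with 0 of 8 called in either comparison. Cholangiocyte markers, with 3 of 7 tested and Krt19 and Epcam not among them, summed to 181.9 to 238.5 in T3 livers, 316.5 to 394.3 in XCT790 livers, 304.8 to 382.5 in combined livers and 295.4 to 469.6 in control livers, and Sox9 was lower with T3 (adjusted p = 0.00542, limma). Kidney tubule markers, with 2 of 7 tested, summed to 278.6 to 385.2 in T3 livers, 466.3 to 482.1 in XCT790 livers, 299.5 to 381.9 in combined livers and 449.6 to 505.9 in control livers. Both groups given T3 lay below both groups without it, and Slc12a3 was lower with T3 (adjusted p = 0.00915) and in combined against XCT790 livers (adjusted p = 0.013). Of 10 lymphocyte markers 2 were tested, with sums from 24.69 to 85.89 over all arrays and 0 called in either comparison. The part of these markers in the Cyp4 results was not tested.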

How the data were processed

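Biotinylated cRNA made from liver RNA was read on 12 Illumina bead arrays. Per the file headers, the authors deposited non-normalized probe intensity with a detection p-value per probe and array, and a matrix of processed intensity, which equals a quantile normalization of the same signals. The submitters' processing notes name Partek 6.6 without a step.

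From the deposited intensity, background was corrected with limma's normexp model (offset 16, background from the deposited detection p-value), followed by quantile normalization and log2 transformation (limma 3.58.1 in R 4.3.3). An offset understates changes of dim genes. Probes detected on at least 3 arrays were kept (17218 of 45281), named through the platform annotation (14446 with 1 symbol), and the brightest probe stood for each of 9747 genes. Group means were fitted over all 12 arrays and contrasts tested two-sided with eBayes, with Benjamini-Hochberg adjustment over all genes and a threshold of 0.05. A gene not detected on any array of a group was given a lower bound in place of a fold.

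The members, gene lists, tests and naming rule were chosen with earlier results of these data known. The rule named all members, each further Cyp4 gene tested, per list up to 3 genes with the lowest p for T3 and up to 3 for XCT790, Ppara, Rxra, Stat5b, Bcl6, Cux2 and Hnf4a throughout, and the 3 most similar genes of each member called with a log2 fold change of at least 1. Arrays of the same number did not deviate together (correlations from -0.13 to 0.13, over 0.1 in 2 of 18 pairs), so the main fit has no block. Promoter windows are RefSeq's, on GRCm38.p6. The fit was tested on simulated data.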

Additional observations from a re-analysis of the deposited data

Results flagged for a closer look

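For the interaction term, the difference between the T3 responses with and without XCT790, 0 of 7 Cyp4 members passed over all genes. The 95% intervals of Cyp4a12b (0.34 to 1.72), Cyp4a14 (-3.09 to -0.22) and Cyp4v3 (0.07 to 0.73) did not include 0, and Cyp4a12b passed with the array number as a block (adjusted p = 0.0282). Such an interval goes with an unadjusted p under 0.05, which 1178 of all 9747 genes had. Among the genes named from the lists beside the family, Plin5 passed, and Cux2 is described below without a test. A1bg, on the female-biased list but outside the naming rule, also passed (2.24, adjusted p = 0.00142, limma). So did Fbxo31, named above for its likeness to Cyp4a14 (-1.65, adjusted p = 0.0126, limma). Plin5, the lipid droplet protein among PPARA targets, had an interaction of -1.65 on the log2 scale (adjusted p = 0.0161, limma, and 0.000534 to 0.0512 over 22 alternatives, with the call lost when probes were averaged). Its means were 10.36 ± 0.20 in T3 livers, 10.56 ± 0.38 in XCT790 livers, 10.20 ± 0.02 in combined livers and 9.08 ± 0.14 in control livers (SD, n = 3). It rose by 1.28 with T3 against control, and combined against XCT790 livers gave -0.36 (adjusted p = 0.187). Cux2, the repressor of male-biased genes, had an interaction of 1.99 (1.59 to 2.25 over 22 alternatives), which is a description with no test. Its means were 7.03 ± 0.49 in T3 livers, 4.90 ± 0.39 in XCT790 livers, where 1 of 3 arrays detected it, 9.25 ± 0.29 in combined livers, and 4.66 ± 0.18 in control livers, where none did. Both groups without T3 lay near background, and the Cux2 probe passed the filter only through the groups given T3, so no p-value is given for it.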

How the results depend on the processing

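All calls of members for combined against XCT790 livers and for combined against control livers, and those of Cyp4a12a, Cyp4a12b, Cyp4f15 and Cyp4v3 for T3 against control, held in all 23 alternatives. Cyp4f13 and Cyp4f14 gained a call for combined against control in 2 and 6 of them, Cyp4f14 for T3 against control in 8, Cyp4v3 for XCT790 against control in 5, and Cyp4a12a and Cyp4a12b for XCT790 against control in 1 each. The deposited matrix repeats the values without background correction, so all counts of alternatives, here and above, hold that setting under both names. Median scaling called 942 genes in place of 1567 for T3 against control and 235 in place of 430 for XCT790 against control, and 18 in place of 9 for combined against T3. Fitting only the groups compared called 249 for XCT790 against control and 1 for combined against T3. For combined against T3 the counts were also 17 without background correction, 14 with offset 50, 17 with the deposited matrix and 39 with a robust prior with trend. For the interaction, 45 in the main setting, they were 141 without background correction, 126 with offset 50, 141 with the deposited matrix, 27 without a filter, 91 with the stricter filter, 84 over single probes and 145 with the robust prior. The members called for XCT790 against control were 2 in place of 1 without background correction, with offset 50, the deposited matrix, the stricter filter, the replicate block or only both groups. With the array number as a replicate block, 3 genes were called for combined against T3 and 24 for the interaction, 1 of them a member, Cyp4a12b, in place of 0, and beside these and the member count for XCT790 no count of calls moved by over 1.5 times; 4 of 12 arrays correlated best with their own number. Leaving out 1 array gave 1125 to 1602 genes for T3 against control (members 4 to 6), 188 to 421 for XCT790 against control (0 to 1), 977 to 1457 for combined against XCT790 (5), 1 to 9 for combined against T3 (0), 1239 to 1861 for combined against control (5) and 17 to 90 for the interaction (0). Over the same fits, values near 0 changed sign: the Cyp4a12a interaction ranged from -0.21 to 0.34, Cyp4a14 for combined against XCT790 from -0.34 to 0.42, Rxra for T3 against control from -0.05 to 0.13, and for combined against T3 Cyp4a14 from -0.04 to 0.87, Cyp4f14 from -0.05 to 0.11, Cyp4f15 from -0.04 to 0.10, Cyp4v3 from -0.08 to 0.06 and Cyp4a31 from -0.07 to 0.38. Signs turned under median scaling to -0.15 for the Cyp4a12a interaction, -0.03 for the Cyp4f14 interaction and -0.22 for Cyp4a14 in combined against XCT790, and in combined against T3 to -0.18 for Cyp4f14, -0.22 for Cyp4f15, -0.24 for Cyp4v3 and -0.07 for Cyp4a31, where that scaling shifted the median of all genes by -0.228 (-0.147 for the interaction). None of these passed in any of the settings, and where no construction shows it the cause was not tested. Signal over background limits the readings of Cyp4f39, Cyp4f40, Cyp2u1, Hsd17b6, Abcd2, Cyp2a4 and Cux2 to bounds.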
